A study of Homo sapiens with 9 samples.

Results

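The 10 genes DUSP1, DUSP4, DUSP5, DUSP6, DUSP10, SPRY1, SPRY2, SPRY4, SPRED1 and SPRED2 encode feedback inhibitors of the mitogen-activated protein kinase (MAPK) pathways, and were taken by symbol from a gene count table of 28216 genes, in which all 10 are present. The table came from poly(A) RNA sequencing of 2 human prostate cancer cell lines in 3 groups of 3 libraries. PC3, an androgen-insensitive line, was untreated and grown in F12K medium with 10% fetal bovine serum (FBS). LNCaP (clone FCG), an androgen-responsive line, was kept for 24 h in RPMI without phenol red and with 10% charcoal-stripped FBS, which is poor in steroids, and then for 48 h with either 10 nM dihydrotestosterone (DHT) or 0.01% ethanol as vehicle. All groups are labelled wild type, which here means that no gene was engineered. The labels name the androgen as DHT, whereas the study's cell culture methods name R1881, a synthetic androgen. Medium and serum differed between the lines, so line and culture cannot be told apart. Each line is a single line, and the sources used here do not say how the 3 libraries of a group were cultured, although the study's RNA sequencing model held a term for experimental batch, so p-values measure the spread between these libraries.

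In the MAPK cascade, growth factor receptors activate RAS, and RAS activates the kinases RAF, MEK and ERK in turn, while stress signals act through the related kinases p38 and JNK. Active ERK switches on genes that damp the same pathway. The dual-specificity phosphatases (DUSP) remove phosphate from the MAP kinases: DUSP6 acts on ERK in the cytoplasm, DUSP4 and DUSP5 act in the nucleus, and DUSP1 and DUSP10 also act on p38 and JNK. The Sprouty proteins (SPRY) restrain signalling between the receptor and RAF, and the Sprouty-related SPRED proteins bring the RAS inactivator neurofibromin to the membrane. Transcripts of the ERK-induced members are widely read as a sign of ERK pathway output, since many of them are short-lived.

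The libraries held 17397706 to 25640325 counts on genes. PC3 libraries were the deepest, with 22444083 to 25640325 counts, and vehicle libraries the shallowest, with 17397706 to 18674795. Levels are given as CPM, counts scaled to the size of the library, and where no read was counted a true level of 0.117 to 0.172 CPM or less, depending on the library, remains possible for counting error only. No PC3 library held a count of the luminal kallikrein gene KLK2, where LNCaP libraries held 621 to 15238, and KLK3, FKBP5 and TMPRSS2, all androgen targets, were higher with DHT than with vehicle, by 2.89 to 4.90 on the log2 scale. Of 7 luminal markers, 6 were lower in PC3 than in each LNCaP group, and HOXB13 was not. The 3 leukocyte markers summed to 31.6 to 34.6 CPM in PC3, 15.9 to 22.2 with DHT and 1.63 to 2.31 with vehicle, nearly all from CD68 (316 to 495 counts with DHT and 30 to 44 with vehicle, log2 3.33), while PTPRC and CD3E had 0 counts in every LNCaP library. The 3 endothelial markers summed to 1.89 to 3.40, 6.63 to 7.95 and 16.3 to 18.4 CPM, in LNCaP mostly from VWF, with CDH5 at 0 in every library, and the 3 fibroblast markers to 33.3 to 40.9, 11.9 to 15.3 and 20.5 to 23.9 CPM, mostly from COL1A1. The part of these genes' changes in the results of the members was not tested. The 5 transcripts chosen as abundant in PC3 (VIM, CD44, ITGA3, ANTXR2 and MMP14) were found in LNCaP at a summed 0.946%, 0.604% and 0.489% of their PC3 level in DHT replicates 1, 2 and 3 and at 0.527%, 0.375% and 0.401% in the vehicle replicates, and these shares are set beside the scarce members below. PC3 replicate 3 differed most from its group (chi-square of 33.7 and 58.2 per gene against the others, which differed by 12.3), and all 8 members that were higher in PC3 were called without it too.

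Androgen treatment of LNCaP was accompanied by higher SPRY4, DUSP1 and DUSP10 and lower SPRY1. A gene was called where its groups differed at least 2-fold with an adjusted p under 0.05 in edgeR's quasi-likelihood test with Benjamini-Hochberg adjustment over all genes tested, which were those with over 3 CPM in at least 3 of the 6 libraries. By this rule 4 of the 8 members tested were called, 3 higher and 1 lower, where 14.0% of all 11697 genes tested were called, 6.54% higher and 7.49% lower. By adjusted p alone 7 of the 8 passed, 5 higher and 2 lower, against 74.9% of all genes (37.1% higher and 37.8% lower), so that count lay near the background. The groups did not overlap in those 7 members, which was so for 77.8% of all genes. The median log2 fold change was 0.61 over the tested members and -0.01 over all genes tested. DUSP6 and SPRY2 were below the filter and were not tested. SPRY4 passed the filter only through the DHT libraries, which fixes its direction in these counts and in the median. With a filter of at least 10 counts in every library SPRY4 was not tested, and 3 of 7 members were called.

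SPRY4, which encodes a Sprouty protein, showed the largest difference of the members. It had 179, 71 and 92 counts with DHT and 14, 2 and 5 counts with vehicle, or 8.01, 3.50 and 4.64 CPM against 0.734, 0.110 and 0.254 CPM. Every DHT library lay above every vehicle library, although the whole vehicle group summed to 21 counts, and SPRY4 passed the filter only through the DHT group. The fitted level was 14.6-fold higher with DHT (log2 3.86, SE 0.46, adjusted p = 5.66e-06, edgeR quasi-likelihood test), and leaving out single libraries or replicate 1 of both groups gave log2 values from 3.44 to 4.84, the highest without vehicle replicate 1. Relative to its own PC3 mean, SPRY4 stood at 1.83%, 0.800% and 1.06% in the DHT libraries, above each of the 5 PC3 transcripts in the same library. In the vehicle libraries it stood at 0.168%, 0.0251% and 0.0580%, below each of them. In DHT replicate 2 the margin was small, 0.800% against at most 0.706%. Of the 5 transcripts, 3 were tested between DHT and vehicle, and VIM alone was called, higher with DHT (log2 1.86). The part of PC3 RNA in the SPRY4 values was not tested.

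DUSP1, an immediate early nuclear phosphatase that acts on p38 and JNK as well as ERK, stood at 33.8, 32.5 and 27.7 CPM with DHT and at 13.6, 17.5 and 15.3 CPM with vehicle. Every DHT library lay above every vehicle library. The difference was 2.04-fold (log2 1.03, SE 0.10, adjusted p = 7.56e-07, edgeR quasi-likelihood test), just past the 2-fold threshold. Without DHT replicate 1 the log2 value was 0.96 and without vehicle replicate 1 it was 0.94, both under 2-fold, with adjusted p of 1.07e-06 and 9.47e-06 in the same test.

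DUSP10, a phosphatase that prefers p38 and JNK over ERK, had a pattern of the same size at a lower level. It measured 10.8, 9.08 and 10.6 CPM with DHT and 4.09, 5.38 and 5.28 CPM with vehicle, with no overlap. The difference was 2.08-fold (log2 1.05, SE 0.13, adjusted p = 7.19e-06, edgeR quasi-likelihood test). It also dropped to just under 2-fold without replicate 1 of DHT (log2 0.997) or of vehicle (log2 0.94), so without either of these libraries 2 members, SPRY4 and SPRY1, were called.

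SPRY1 moved the other way. This Sprouty gene measured 5.06, 4.44 and 3.98 CPM with DHT and 10.1, 11.1 and 9.14 CPM with vehicle, so that every vehicle library lay above every DHT library. The level fell by 1.16 on the log2 scale (SE 0.13, adjusted p = 2.37e-06, edgeR quasi-likelihood test), which makes it 2.23-fold higher with vehicle, and it stayed past 2-fold when libraries were left out (log2 -1.26 to -1.08).

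The SPRED genes and DUSP4 differed by less than 2-fold. DUSP4, a nuclear phosphatase, measured 46.2, 57.5 and 43.7 CPM with DHT and 23.8, 35.6 and 25.6 CPM with vehicle, which was 1.74-fold higher (log2 0.80, SE 0.13, adjusted p = 9.85e-05, edgeR quasi-likelihood test). SPRED2 measured 26.7, 27.8 and 28.5 CPM with DHT and 21.2, 20.5 and 21.6 CPM with vehicle, a difference of 1.31-fold (log2 0.39, SE 0.06, adjusted p = 7.58e-05). The groups did not overlap in either gene. SPRED1 measured 8.19, 7.85 and 7.81 CPM with DHT and 10.0, 9.22 and 9.45 CPM with vehicle, a log2 difference of -0.26 (SE 0.10, adjusted p = 0.0237), and without replicate 1 of both groups its adjusted p was 0.0893 in the same edgeR test. With all libraries kept, the DESeq2 Wald test gave SPRED1 an adjusted p of 0.102, so its pass by adjusted p depended on the test.

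DUSP5, an ERK-selective nuclear phosphatase, was not called, and its adjusted p depended on the pairing. It measured 6.49, 3.01 and 3.53 CPM with DHT and 3.72, 2.85 and 3.30 CPM with vehicle, and the groups overlapped (log2 0.42, SE 0.26, adjusted p = 0.158, edgeR quasi-likelihood test). DHT was the higher in each of the 3 same-numbered pairs, and with the replicate number as a block the log2 value was 0.39 (SE 0.17, adjusted p = 0.0452), past the adjusted p and under 2-fold. Without DHT replicate 2 the unblocked value was 0.62 (adjusted p = 0.0319, edgeR). The high value was DHT replicate 1, without which the log2 value was -0.02. That library also held the most of the 5 PC3 transcripts, each at 0.657% to 1.10% of its PC3 level, where DUSP5 stood at 1.58%, and their part in the DUSP5 value was not tested.

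The cytoplasmic ERK phosphatase DUSP6 was close to the detection limit in LNCaP, with 20, 16 and 15 counts with DHT and 29, 6 and 13 counts with vehicle. These levels overlapped and were 0.484% to 0.573% of the PC3 mean with DHT and 0.211% to 0.974% with vehicle. They lay within the range of the 5 PC3 transcripts in 4 of the 6 libraries, below it in 1 and above it in 1, and the part of PC3 RNA in them was not tested. SPRY2, another Sprouty gene, had 23, 25 and 9 counts with DHT and 11, 17 and 11 counts with vehicle, again with overlap. With no filter on low counts, edgeR's quasi-likelihood test gave log2 differences of -0.02 for DUSP6 (adjusted p = 0.971) and 0.43 for SPRY2 (adjusted p = 0.369).

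**Figure D1:**
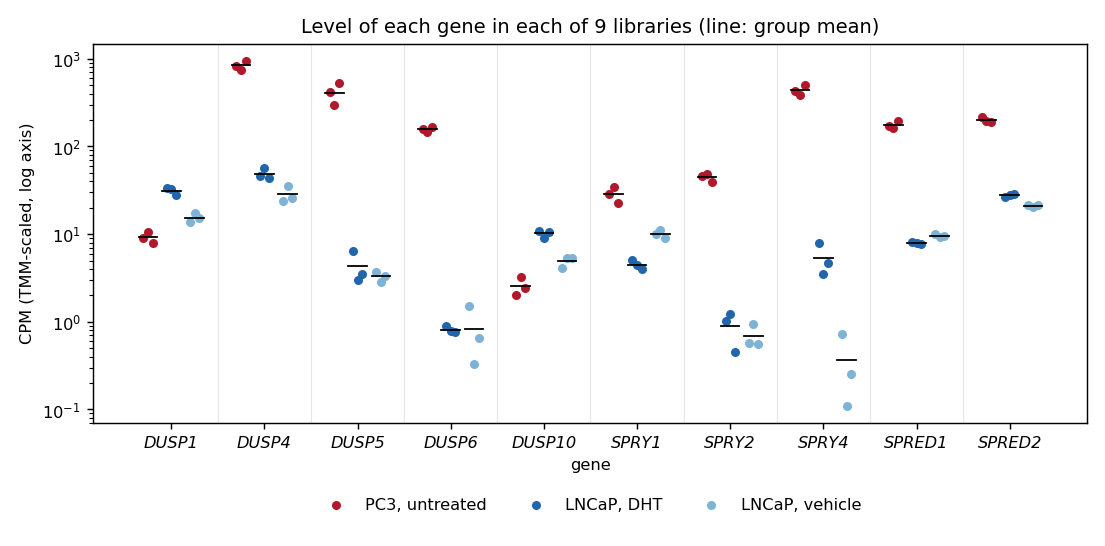
Level of each of the 10 genes in each of 9 libraries, in CPM scaled by TMM factors on a log axis, with points for libraries coloured by group and a line at each group mean. The PC3 points lie above both LNCaP groups in 8 genes and below them in DUSP1 and DUSP10, and the largest step between DHT and vehicle is that of SPRY4, from a mean of 5.39 to 0.366 CPM.

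The promoters of the members were searched in RefSeq sequence of build GRCh38.p14 for 6 motifs of factors that act on immediate early, ERK-responsive or androgen-responsive genes. The windows ran from 250 bases before to 50 bases after each annotated start, and 8 of the 10 genes matched, with 13 promoters (DUSP4 and DUSP5 had no entry). The cAMP response element palindrome TGACGTCA occurred in 1.85% of all 35116 promoters and, among the members, in DUSP1 alone. The shorter core of that element, TGACG, on either strand, occurred in 24.6% of all promoters and in 5 of the 13, those of DUSP1, DUSP10, SPRED2, SPRY2 and SPRY4. The stretches before the start sites of DUSP1, which was higher with DHT, and SPRY2, which was scarce in both LNCaP groups, are shown because they contrast a cluster of 4 cores with a lone one, with the core on either strand in capitals. Both genes lie on the minus strand, and the stretches are chr5:172771282-172771387 for DUSP1 and chr13:80341292-80341336 for SPRY2.
DUSP1: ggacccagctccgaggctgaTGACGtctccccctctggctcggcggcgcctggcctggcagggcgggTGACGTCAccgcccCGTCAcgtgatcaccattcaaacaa
SPRY2: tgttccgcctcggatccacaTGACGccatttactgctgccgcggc
In DUSP1 the cores began 172, 125, 122 and 111 bases before the start, and those at 125 and 122 overlap to form the palindrome. The AP-1 site TGANTCA occurred in 7.71% of all promoters and in 1 of SPRED2, and the ETS site CCGGAAG in 10.3% and in 1 of SPRY1. The CArG box occurred in 1.29% of all promoters and the full androgen response element in 0.00285%, and neither in a member. These matches describe letters only.

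PC3 cells had higher levels of 8 of the 10 members than LNCaP, whichever LNCaP group was used, and lower levels of the 2 phosphatases DUSP1 and DUSP10. Against DHT-treated LNCaP all 10 were called, 8 higher and 2 lower, where 46.0% of 12541 genes tested were called, 24.0% higher and 22.1% lower. Against vehicle-treated LNCaP 8 were called higher and none lower, where 43.2% of 12686 genes were called, 22.2% higher and 21.0% lower. By adjusted p alone DUSP1 and DUSP10 were also lower against vehicle, so that all 10 passed in each comparison, where 84.0% of all genes did against DHT and 83.4% against vehicle. In all 10 members the PC3 libraries did not overlap those of either LNCaP group, which was so for 86.4% of all genes against DHT and 85.9% against vehicle. In 6 members (DUSP4, DUSP5, DUSP6, SPRY2, SPRY4 and SPRED1) PC3 was at least 16-fold higher in each comparison, a size reached by 7.50% of all genes against DHT and 7.35% against vehicle. The median log2 fold change of the members was 4.28 against DHT and 4.57 against vehicle, beside 0.04 and 0.03 over all genes tested. DUSP6 and SPRY2 passed the filter only through the PC3 libraries, as did SPRY4 against vehicle, which fixes their direction. DUSP10 passed through LNCaP. DUSP5 also needed PC3 libraries to pass in both comparisons, as replicate 2 of each LNCaP group lay just under 3 CPM before TMM scaling. The 16-fold count includes DUSP5, DUSP6, SPRY2 and SPRY4. These comparisons share the PC3 libraries and are given side by side, and in bulk RNA fewer cells that express a gene and less RNA per cell cannot be told apart.

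Among the phosphatases that were higher in PC3, DUSP6 had the largest fitted difference. It had 4009, 3353 and 4173 counts in PC3, or 158, 146 and 165 CPM, against 6 to 29 counts in the LNCaP libraries. The PC3 level was 190.2-fold that of DHT-treated LNCaP (log2 7.57, SE 0.10, adjusted p = 6.56e-09, edgeR quasi-likelihood test) and 187-fold that of vehicle-treated LNCaP (log2 7.55, SE 0.28, adjusted p = 1.52e-07). The second value rests on few counts: it was 8.30 without vehicle replicate 1, which held 29 counts, and 7.18 without vehicle replicate 2, which held 6. All 3 PC3 libraries lay far above all 6 LNCaP libraries.

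DUSP5 measured 413, 299 and 525 CPM in PC3, the widest spread of the 8 members that were higher there, with a coefficient of variation of 27.5%. The LNCaP libraries did not exceed 6.49 CPM. PC3 was 93.6-fold higher than DHT-treated LNCaP (log2 6.55, SE 0.34, adjusted p = 6.56e-07) and 127-fold higher than vehicle-treated LNCaP (log2 6.98, SE 0.25, adjusted p = 1.24e-07) in edgeR's quasi-likelihood test.

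DUSP4 had the highest CPM of all members in every PC3 library, with 832, 749 and 938 CPM. Of the phosphatases that were higher in PC3, it also had the most transcript in LNCaP, where it kept 5.85% of the PC3 mean with DHT and 3.37% with vehicle. The difference was 17.1-fold against DHT (log2 4.10, SE 0.14, adjusted p = 8.07e-08) and 30.2-fold against vehicle (log2 4.92, SE 0.17, adjusted p = 1.11e-07) in edgeR's quasi-likelihood test.

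The phosphatases DUSP1 and DUSP10 went the other way. DUSP1 measured 8.97, 10.6 and 7.98 CPM in PC3, below all 6 LNCaP libraries. It was 3.41-fold lower than in DHT-treated LNCaP (log2 -1.77, SE 0.14, adjusted p = 8.92e-06, edgeR quasi-likelihood test). Against vehicle the log2 difference was -0.73 (SE 0.15, adjusted p = 0.00199), under 2-fold. DUSP10 measured 2.01, 3.26 and 2.41 CPM in PC3, from 51, 75 and 61 counts, and also lay below every LNCaP library. It was 3.98-fold lower than with DHT (log2 -1.99, SE 0.20, adjusted p = 2.75e-05), while against vehicle its log2 difference of -0.92 (SE 0.21, adjusted p = 0.00389) was under 2-fold in the same test. Without PC3 replicate 2 or vehicle replicate 1 the DUSP10 value against vehicle was -1.14 and -1.03, past the threshold.

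SPRY4 dominated the Sprouty genes in PC3, with 427, 382 and 506 CPM from 8788 to 12799 counts. The PC3 level was 80.4-fold that of DHT-treated LNCaP (log2 6.33, SE 0.29, adjusted p = 3.40e-07, edgeR quasi-likelihood test). Against vehicle, where the group held 21 counts in all, the fitted log2 difference was 10.22 (SE 0.30, adjusted p = 5.34e-08), with 9.80 to 11.20 when single libraries were left out, the highest again without vehicle replicate 1, and a size this large rests on the few vehicle counts.

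SPRY2 measured 45.7, 48.0 and 39.8 CPM in PC3 and at most 1.23 CPM in LNCaP. It was 48.6-fold higher than with DHT (log2 5.60, SE 0.25, adjusted p = 2.99e-07) and 65.6-fold higher than with vehicle (log2 6.03, SE 0.18, adjusted p = 5.91e-08) in edgeR's quasi-likelihood test. SPRY2 stood above all 5 PC3 transcripts, as a share of its PC3 mean, in each of the 6 LNCaP libraries. SPRY1 measured 29.0, 34.5 and 22.9 CPM in PC3 and was the least different of the 8 higher members, at 6.40-fold over DHT (log2 2.68, SE 0.19, adjusted p = 4.23e-06) and 2.90-fold over vehicle (log2 1.54, SE 0.17, adjusted p = 6.31e-05).

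The SPRED genes differed by different amounts. SPRED1 measured 170, 161 and 197 CPM in PC3, which was 22.1-fold over DHT (log2 4.47, SE 0.10, adjusted p = 1.61e-08) and 18.7-fold over vehicle (log2 4.22, SE 0.09, adjusted p = 1.83e-08) in edgeR's quasi-likelihood test. SPRED2 measured 216, 196 and 190 CPM, which was 7.26-fold over DHT (log2 2.86, SE 0.07, adjusted p = 3.07e-08) and 9.64-fold over vehicle (log2 3.27, SE 0.08, adjusted p = 2.19e-08). In both genes all PC3 libraries lay above all LNCaP libraries.

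**Figure D2:**
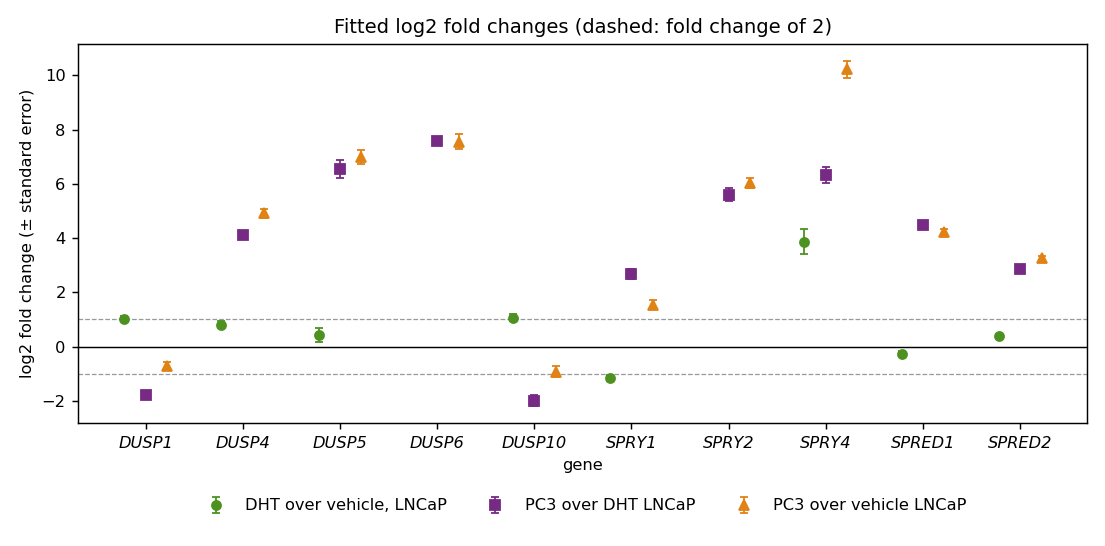
Fitted log2 fold change of each gene with its standard error in the 3 comparisons, with dashed lines at a fold change of 2 in either direction. DUSP6 and SPRY2 have no DHT-over-vehicle point because they were below the filter. SPRY4 has the highest point in the PC3-over-vehicle comparison, at 10.22, and DUSP1 and DUSP10 are the members below 0 in both PC3 comparisons.

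The LNCaP levels of the 8 genes that were higher in PC3 spread over a wide range as shares of their PC3 means. SPRY1 kept the largest share, with 13.8% to 17.6% with DHT and 31.8% to 38.5% with vehicle, followed by SPRED2 with 13.3% to 14.2% and 10.2% to 10.8%. SPRED1 kept 4.45% to 4.66% with DHT and 5.25% to 5.70% with vehicle. DUSP4, SPRED1, SPRED2, SPRY1 and SPRY2 lay above all 5 PC3 transcripts in each of the 6 LNCaP libraries, as did DUSP5, by a small margin (0.692% against at most 0.635% in vehicle replicate 2, for example).

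**Figure D3:**
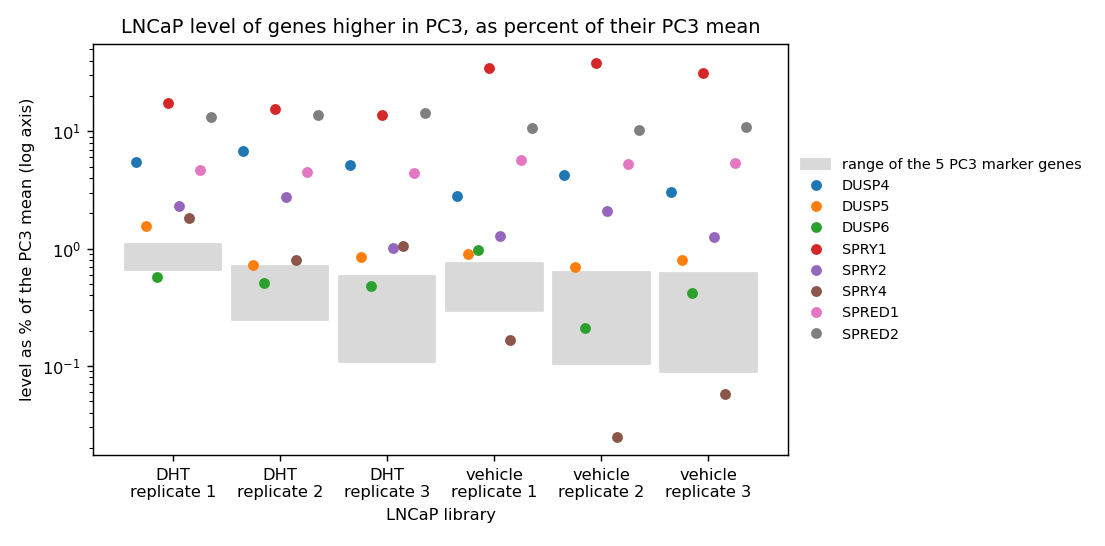
Level of the 8 genes that were higher in PC3 in each LNCaP library, as a percent of the gene's PC3 mean on a log axis, with the grey band giving the range of VIM, CD44, ITGA3, ANTXR2 and MMP14 in the same library. SPRY4 lies above the band in all 3 DHT libraries (0.800% to 1.83%) and below it in all 3 vehicle libraries (0.0251% to 0.168%), while DUSP6 stays in or near it.

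To compare levels between genes, CPM was divided by the length of the gene's merged exons in kilobases. In PC3 the order by CPM per kilobase was DUSP5 (163), DUSP4 (115), SPRY4 (66.8), DUSP6 (40.5), SPRED2 (36.4), SPRED1 (22.7), SPRY2 (13.9), SPRY1 (7.26), DUSP1 (4.56) and DUSP10 (0.905). The ranges of the 3 libraries overlapped between DUSP5 and DUSP4 and between DUSP6 and SPRED2, and no other neighbours overlapped. With DHT the order in LNCaP began with DUSP1 (15.6), DUSP4 (6.76), SPRED2 (5.03) and DUSP10 (3.60), which did not overlap, followed by DUSP5, SPRY1, SPRED1 and SPRY4 at 1.71 to 0.822, each overlapping its neighbour, and by SPRY2 and DUSP6 under 0.3. With vehicle DUSP1 (7.68) led again, DUSP4 (3.89) and SPRED2 (3.84) overlapped, SPRY1 (2.55) came next, and SPRY4 (0.0558) was the lowest.

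The make-up of the listed genes of each family differed between the groups. Other family genes are not in these shares. DUSP16, for example, measured 14.4 CPM in PC3, 81.3 with DHT and 97.8 with vehicle, and SPRY3 measured 0.0131, 1.83 and 4.07 CPM. DUSP5 and DUSP4 held 49.6% ± 4.80 and 36.0% ± 2.66 (SD, n = 3) of the summed CPM per kilobase of the 5 phosphatases in PC3, and DUSP1 1.46% ± 0.479. In LNCaP DUSP1 held 55.9% ± 0.914 with DHT and 51.7% ± 1.03 with vehicle (SD, n = 3). Of the 3 Sprouty genes, SPRY4 held 75.7% ± 4.93 in PC3, 35.9% ± 8.79 with DHT and 2.01% ± 1.76 with vehicle, and SPRY1 held 8.38% ± 2.29, 51.5% ± 5.39 and 90.5% ± 0.976 (SD, n = 3). The summed level of the 5 phosphatases was 324 ± 59.3 CPM per kilobase in PC3, 27.9 ± 2.42 with DHT and 14.8 ± 1.70 with vehicle (SD, n = 3). That of the 5 Sprouty and SPRED genes was 147 ± 8.45, 8.29 ± 0.375 and 7.89 ± 0.193, so the DHT and vehicle sums lay close together. From vehicle to DHT SPRY1 went from 2.55 to 1.13 CPM per kilobase and SPRED1 from 1.23 to 1.03. SPRED2 went from 3.84 to 5.03, SPRY4 from 0.0558 to 0.822 and SPRY2 from 0.215 to 0.282.

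**Figure D4:**
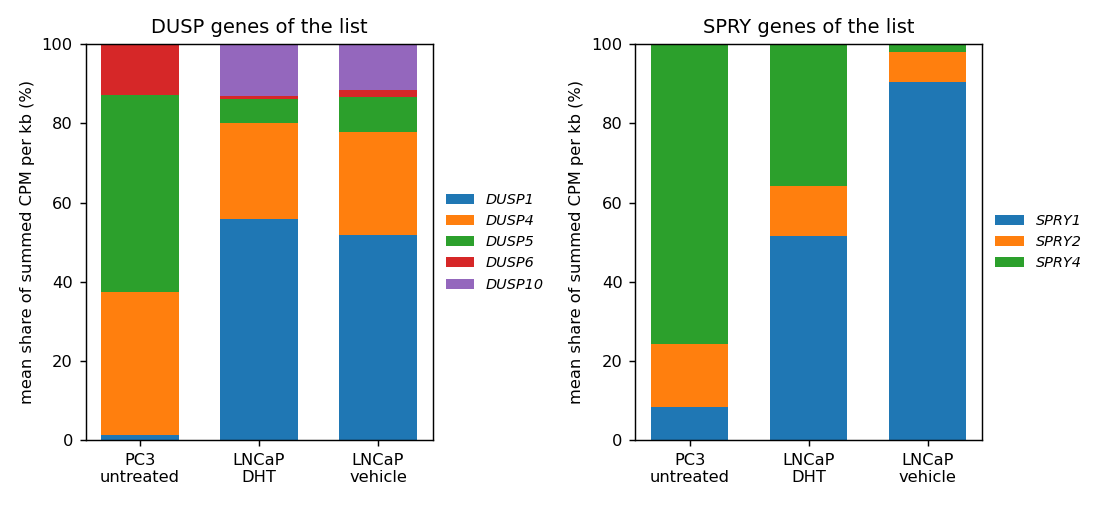
Mean share of each gene in the summed CPM per kilobase of the 5 DUSP genes and of the 3 SPRY genes, as stacked bars per group from 0 to 100%. DUSP5 and DUSP4 fill most of the PC3 bar and DUSP1 most of the LNCaP bars, while the largest Sprouty share passes from SPRY4 in PC3 (75.7%) to SPRY1 in vehicle-treated LNCaP (90.5%).

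The genes that act before and after these inhibitors were read from lists of pathway genes. A gene could pass the filter through the group where it was high alone, which fixes its direction, so counts and medians over the tested genes of a list are descriptions. Upstream, of 14 tested growth factor receptors and ERBB ligands 8 were called higher and 5 lower in PC3 than in DHT-treated LNCaP, with a median log2 difference of 2.27. AREG, an EGFR ligand, had 2872 to 5858 counts in PC3 and 1 to 6 with DHT (log2 10.42), and the hepatocyte growth factor receptor MET had 23091 to 29440 against 17 to 99 (log2 8.93). FGFR3 was lower in PC3 (log2 -6.14), as was ERBB3 (log2 -3.80). With DHT against vehicle 2 of 11 were called higher and 2 lower. IGF1R, the insulin-like growth factor 1 receptor, was 3.53 higher on the log2 scale. MET was lower (log2 -1.28, SE 0.43, adjusted p = 0.0170, edgeR quasi-likelihood test), but its groups overlapped. It had 17 to 99 counts with DHT, the most in replicate 1, and 66 to 129 with vehicle.

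The RAS-ERK cascade itself had small median differences. With DHT none of its 15 tested genes was called, although 8 were higher and 1 lower by adjusted p alone in edgeR's quasi-likelihood test, with the MEK gene MAP2K1 at a log2 of 0.83 and the RAS activator SOS1 at -0.62. Between PC3 and DHT-treated LNCaP 3 of 16 were called higher and 4 lower, with a median log2 difference of -0.16 beside 4.28 for the feedback members. SOS1 was higher in PC3 (log2 2.52), and PTPN11, the SHP2 phosphatase that carries receptor signals to RAS, was at 0.56. Against vehicle 5 of 16 were called higher and 3 lower, with a median of 0.02.

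Genes of the p38 and JNK cascade were called in either direction. The list holds p38 and JNK, on which DUSP1 and DUSP10 act, and the kinases that activate them. Of 10 tested with DHT against vehicle, 1 was called higher, the p38 beta gene MAPK11 (log2 1.68), and 1 lower, the p38 activator MAP2K6 (log2 -2.28). In PC3 against DHT-treated LNCaP 3 were called higher and 3 lower of 10, with a median log2 difference of -0.60, and against vehicle 1 was called higher and 1 lower, with a median of -0.51. The JNK2 gene MAPK9 stood at -0.44 with DHT and at -0.48 and -0.90 in the PC3 comparisons, under 2-fold each time.

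Downstream, genes widely used as readouts of ERK output were high in PC3. All 7 tested were called higher in each PC3 comparison, but FOSL1, ETV4, ETV5, IER3 and PHLDA1 passed the filter only through the PC3 libraries, which fixes their direction. The list had a median log2 difference of 7.62 against DHT and 8.02 against vehicle. The AP-1 subunit gene FOSL1 had 17935 to 21170 counts in PC3, against 0 to 96 with DHT and 2 to 47 with vehicle, and the cyclin D1 gene CCND1 was 1.48 higher on the log2 scale against DHT and 1.15 against vehicle. In LNCaP 2 of the 8 passed the filter and neither was called with DHT (CCND1 log2 -0.35, adjusted p = 1.05e-05, edgeR quasi-likelihood test). Of the immediate early genes, to which DUSP1 also belongs, 4 of 7 tested were called higher with DHT and 1 lower, with a median log2 difference of 1.06. NR4A1, a nuclear receptor gene, had the largest rise (log2 1.80) and the antiproliferative gene BTG2 the largest fall (log2 -1.53). FOS, FOSB, EGR1, EGR2 and EGR3 were below the filter in every comparison. In PC3 against DHT-treated LNCaP 4 of the 7 were called lower, and IER2 was called higher (log2 3.15). Against vehicle-treated LNCaP 1 of 7 was called lower and 2 higher, with a median log2 difference of 0.01.

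Members of these gene families outside the 10 genes did not follow one direction. In PC3 against DHT-treated LNCaP 2 of 5 tested were called higher and 3 lower, with a median log2 difference of -2.49. The phosphatase gene DUSP7 (2.23) and SPRED3 (3.31) were higher, and DUSP2 (-5.37), DUSP8 (-3.12) and DUSP16 (-2.49) were lower, all on the log2 scale. SPRED3 (41 to 53 counts with DHT) passed the filter only through PC3 and DUSP2 (2 to 7 counts in PC3) only through LNCaP, which fixes their direction. With DHT against vehicle SPRY3, which passed the filter only through the vehicle libraries, was called lower (log2 -1.15, 70 to 86 counts with vehicle and 35 to 40 with DHT), and DUSP8 was 0.79 higher, under 2-fold. In PC3 each library had 0 to 1 counts of SPRY3.

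Other negative regulators of receptor signalling included the tested gene with the largest DHT difference on these pathway lists. ERRFI1, which encodes an inhibitor of EGFR family kinases, had 15246 to 20999 counts with DHT and 804 to 860 with vehicle (log2 4.31, SE 0.10, adjusted p = 9.32e-13, edgeR quasi-likelihood test). LRIG1, a membrane protein that promotes receptor turnover, was 1.85 higher with DHT on the log2 scale and had 10 to 19 counts in PC3. IL17RD, also known as Sef, measured 5.55 ± 0.741 CPM with DHT and 11.2 ± 1.99 with vehicle (SD, n = 3), at the 2-fold edge, and was not called (adjusted p = 3.20e-05, edgeR quasi-likelihood test). Of the 7 genes on this list 2 were called higher with DHT and none lower.

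**Figure D5:**
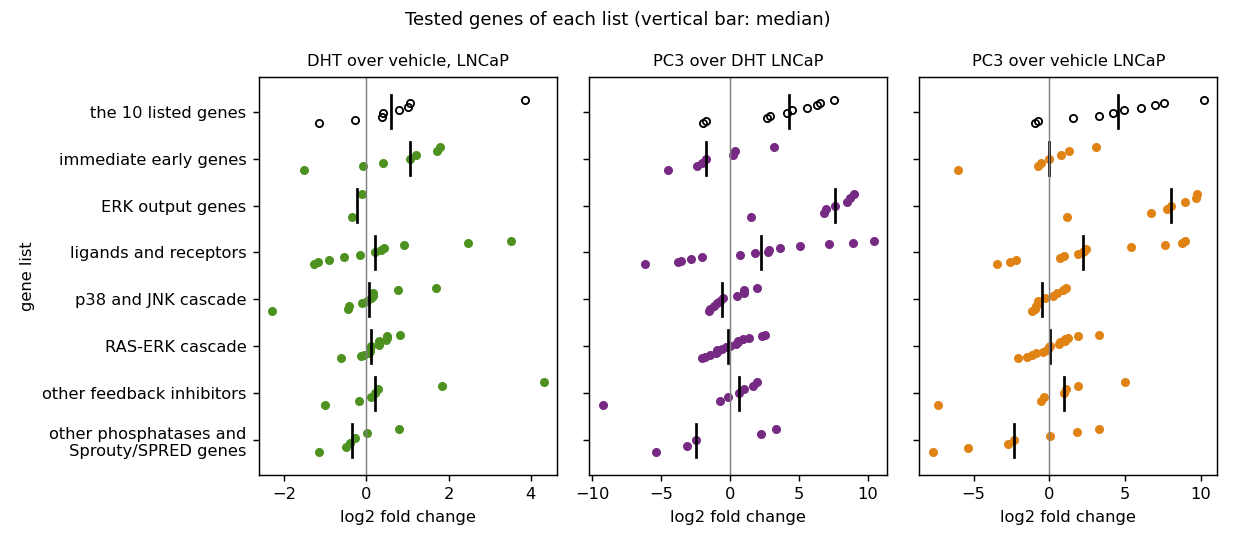
Log2 fold change of each tested gene by list (points) with the list median (vertical bar) in the 3 comparisons, the 10 listed genes in open symbols at the top. In the PC3 comparisons the bars of the 10 genes (4.28 and 4.57) and of the ERK output genes (7.62 and 8.02) lie to the right, while that of the RAS-ERK cascade lies near 0 (-0.16 and 0.02). Some of the 10 genes and most tested ERK output genes passed the filter only through the PC3 libraries, which fixes their direction.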

How the data were processed

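The authors sequenced poly(A) RNA as 74-nucleotide single-end reads, trimmed them with cutadapt, aligned them to hg38 with STAR, removed PCR duplicates by molecular identifiers with UMI-tools and counted reads per gene with STAR. The deposited values used here are these raw counts (a table of the series, whose 253944 values all match the forward-strand counts in the per-library STAR output). Reads not assigned to a gene, 20.3% to 25.4% per library, stayed out of library sizes. Gene coordinates and exon lengths came from GENCODE 44, in which 91.07% of the symbols were found, and strand was used in counting, although DUSP1, DUSP6 and SPRY4 overlap transcripts on the other strand and SPRED2 one on its own strand.

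Each comparison used its own 6 libraries. Genes with over 3 CPM in at least 3 libraries were tested with edgeR 4.0.16 (R 4.3.3; TMM factors, quasi-likelihood test, Benjamini-Hochberg over all genes tested) and called where they differed at least 2-fold with an adjusted p under 0.05. The tests were first tried on simulated counts. CPM values were scaled by TMM factors over 9 libraries, and sums per group are mean ± SD. The study's own model held a batch term, but its batches are not named in the sources used here. Same-numbered DHT and vehicle libraries deviated together (correlations of 0.194, 0.217 and 0.200 over 11697 genes), so the numbers pair them, a reading from the counts alone. The main tests did not use this pairing. With the replicate number as a block the SE went from 0.46 to 0.24 for SPRY4 and from 0.13 to 0.06 for DUSP4, and stayed at 0.095 for SPRED1. PC3 numbers did not pair with LNCaP. No 2 replicates agreed within sampling noise (chi-square of 2.33 to 58.2 per gene).

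The members, lists and named genes were chosen with earlier results of these data known. All 10 members are named with their values. From each list the text names genes among the 2 with the highest mean CPM and the largest rise and fall in each comparison, beside the marker genes and the 3 genes of most similar pattern to DUSP4 and to SPRY4. The 5 immediate early genes below the filter and the noncoding and pseudogene rows were named after their values were seen. Values of some list genes named by this rule are not reported here. Alternatives covered normalization, test (DESeq2 1.42.0, likelihood ratio), filter, strand, call rule, replicate block, libraries in the fit and single libraries left out. Intervals and floors cover counting error only.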

Additional observations from a re-analysis of the deposited data

Results flagged for a closer look

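Reads on the opposite strand of 7 members are not used in any comparison and stood above 3 counts in every PC3 library. The lowest PC3 library held 46 such counts at DUSP4, 18 at DUSP5, 7 at DUSP6, 4 at SPRY2, 20 at SPRY4, 6 at SPRED1 and 15 at SPRED2. Over the PC3 libraries they came to 0.239% (SPRED1) to 0.489% (SPRY2) of the counts on the gene's own strand, while all genes together had up to 3.06% of reads on the opposite strand. In the LNCaP libraries the same genes had 0 to 12 such counts.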

How the results depend on the processing

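The 8 members higher in PC3 kept that direction and their calls under every alternative in which they were tested, against either LNCaP group, as did the lower calls of DUSP1 and DUSP10 against DHT. The androgen comparison was less stable. Of its 8 tested members 4 were called; 7 passed by adjusted p alone, 1 (SPRY4) in a test against a fold change of 2, and 2 to 4 when single libraries were left out. Without replicate 1 of both groups, an alternative chosen after seeing the data, 2 were called, with DUSP1 at 0.87 and DUSP10 at 0.88. DUSP5 changed sign without DHT replicate 1 (-0.019, within a range up to 0.62 with single libraries left out). The members called numbered 10 against DHT and 8 to 9 against vehicle when PC3 or LNCaP libraries were left out. Over all genes 1601 to 1686, 5717 to 5830 and 5415 to 5616 were called with single libraries left out. With no filter on low counts 2941, 9147 and 8713 genes were called instead of 1641, 5773 and 5485, and by adjusted p alone 8763, 10530 and 10577. The replicate block, which pairs the DHT and vehicle libraries, left 4, 10 and 8 members called and changed no member's call (by adjusted p alone DUSP5 passed with DHT, at 0.0452), with 1638, 5756 and 5495 genes called in all. The cause of the other changes was not tested. Depth limits SPRY4, SPRY2 and DUSP6 in LNCaP, where libraries held 2 to 29 counts apart from SPRY4 with DHT.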

Other observations

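The genes whose profile over the 9 libraries was most like that of DUSP4, by the root mean square difference of log2 CPM after centring each gene, were HHEX (0.17), PXDN (0.21) and CHST11 (0.23), where the median over 12843 genes was 2.21. Among the members SPRED1 was nearest to DUSP4 (0.49) and DUSP10 farthest (2.84). For SPRY4 they were IER3 (0.55), MYEOV (0.64) and CHST2 (0.66), with a median of 4.39 over all genes, and the nearest member was DUSP6 (1.64). IER3, an ERK-responsive gene, measured 215 CPM in PC3, 1.69 CPM with DHT and 0.262 CPM with vehicle on average, beside 438, 5.39 and 0.366 CPM for SPRY4. Its LNCaP values rest on 20 to 51 counts with DHT and 1 to 12 with vehicle. IER3 was below the filter between DHT and vehicle, and the part of PC3 RNA in its LNCaP values was not tested. These distances are descriptions over libraries that share their groups.

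The noncoding rows at the SPRY4 locus were low. SPRY4-AS1, on the opposite strand, had 53 to 65 counts in PC3 and 0 to 1 in LNCaP, and SPRY4-IT1 had 43 to 83 and 0 to 2. The DUSP5 pseudogene row DUSP5P1 had 133 to 173 counts in PC3 and 1 to 10 in LNCaP. No stretch of 74 nucleotides of a member was shared with another place in the genome or another gene's transcript, except 1.36% of those of SPRED1.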
